A study of Homo sapiens with 9 samples.

Results

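The genes described here are 3 mesenchymal structural genes and 5 transcription factors of the epithelial-mesenchymal transition (EMT) in PANC-1 cells, a human pancreatic tumour cell line. They were chosen by name: VIM, CDH2 and FN1, and ZEB1, ZEB2, SNAI1, SNAI2 and TWIST1. All 8 were among the 27800 gene symbols of a TPM table for 9 RNA libraries, TPM being the share of a library's transcripts that a gene takes, corrected for transcript length. The study asked how the transcriptome of these cells looks under nutrient and oxygen deprivation, with 3 libraries each at day 0, day 2 and day 14. The labels describe DMEM in which glucose was held at 2.5 mM, serum (fetal calf) at 0.5% and amino acids at 20% of their usual level, with no further treatment. The column names of all 9 samples carry the tag WT, and the labels name no genetic change. The same medium stands in the labels of all 9 samples, day 0 included, and the oxygen level and the culture of the day 0 cells are not given in the sources used here. The length of deprivation and the time in culture cannot be told apart, and no parallel untreated culture at day 2 or day 14 was analysed here.

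EMT is the programme by which epithelial cells loosen their junctions and take on features of migratory mesenchymal cells. SNAI, ZEB and TWIST factors bind E-boxes in promoters of epithelial genes, such as CDH1, which encodes E-cadherin, and repress them together with chromatin-modifying corepressors. Vimentin (VIM), N-cadherin (CDH2) and fibronectin (FN1) are the gene products usually read as mesenchymal. PANC-1 is known as a pancreatic line with mixed epithelial and mesenchymal features, and TGF-beta signalling and low oxygen are known inducers of EMT.

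Day 0 replicate 2 stood apart from the other 8 libraries. It detected 11363 genes at a level of 1 TPM, while each of the others detected 13016 to 13868, and ribosomal protein genes took 23.8% of its TPM, against 10.2% to 14.8%. All 7 genes of the set that were tested were lowest there among the day 0 libraries. Their values in that library lay 0.37 to 1.37 below the mean of day 0 replicates 1 and 3 on the log2(TPM + 1) scale. Tested genes of like transcript length also lay lower in that library, with medians of -0.83 for the length of CDH2, -1.22 for FN1, -1.04 for ZEB1 and -1.23 for ZEB2. For the shorter transcripts of VIM, SNAI1 and SNAI2 those medians were -0.22, -0.03 and -0.35, against -0.95, -1.22 and -0.71 for the genes themselves. The part of these features in the differences from day 0 was not tested, and results are given with and without this library. PANC-1 markers were present in every library: the summed TPM of KRT7, KRT8, KRT18, KRT19, EPCAM and CDH1, of which 6 of 6 were tested, was 3164.52 to 4409.33 at day 0, 1078.5 to 1277.59 at day 2 and 1157.89 to 1362.16 at day 14. Of 9 fibroblast markers 3 were tested. The summed level of all 9 was 14.3 to 68.8 TPM at day 0, 59.7 to 76.8 at day 2 and 10.7 to 17.2 at day 14, with 3 or 4 of the 9 at 0 in each library. DCN, a defining fibroblast gene, was listed at 0 in all 9 libraries, while the 3 tested markers were present. Mean TPM at days 0 and 2 was 37.2 and 65.8 for COL1A1, 5.34 and 2.73 for THY1, and 1.22 and 0.914 for COL3A1. Their day 14 levels are given at the end. Blood markers summed to 1.19 to 6.74 TPM and endothelial markers to 0.056 to 0.544 TPM.

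Differences between days were tested with limma on log2(TPM + 1), in 1 fit of the 9 libraries, and a gene was called when its Benjamini-Hochberg adjusted p over 14144 tested genes was under 0.05. On this scale the change of low genes is understated. Of the 8 genes, 7 had at least 1 TPM in at least 3 libraries and were tested, and TWIST1 was not. ZEB2 passed this filter only through libraries of days 2 and 14, so its tests are no independent support for a rise. At day 14 against day 0, 3 were called higher (CDH2, ZEB2 and SNAI2) and 1 lower (VIM), against a background of 34.2% of all tested genes called (27.5% higher and 6.72% lower). Of these 7, at day 2 against day 0, 0 passed limma's adjusted threshold, against a background of 30.7% called (19.2% higher and 11.5% lower). At an unadjusted limma p under 0.05 there were 3 of the 7, and 6121 of the 14144 tested genes. Between day 14 and day 2, 3 of the 7 had an unadjusted p under 0.05, as did 2558 of the 14144 tested genes. Again 0 of the 7 passed the adjusted threshold, in a comparison in which 0.417% of all tested genes were called (0.212% higher and 0.205% lower). Without day 0 replicate 2, that last background was 27.2% (3307 genes called higher and 541 lower). In that setting VIM and SNAI1 were called lower and CDH2 higher at day 14 than at day 2. With that library left out, 48.2% of tested genes were called at day 2 and 49% at day 14 against day 0. The median log2 difference over all tested genes was 0.23 at day 2 and 0.44 at day 14 against day 0, and 0.24 between days 14 and 2. The balance of calls moved with the scaling: 62.4% of calls at day 2 and 80.4% at day 14 were higher than day 0, against 47.1% and 46.4% after median-ratio scaling.

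Promoters of 5 of the 8 genes were matched by symbol in the RefSeq promoter table of build GRCh38.p14, and those of 3 genes called at day 14 are shown because these genes moved in different directions. SNAI2, also called at day 14, was left out of the promoter search, and SNAI1 and TWIST1 had no entry. Each window of 300 bases spans the annotated start and runs 5′ to 3′ on the gene's own strand. Capitals mark matches to ACGTG or GCGTG, the cores of hypoxia response elements, on either strand, so that a match on the other strand reads CACGT or CACGC.
VIM, chr10:17227991-17228290, plus strand: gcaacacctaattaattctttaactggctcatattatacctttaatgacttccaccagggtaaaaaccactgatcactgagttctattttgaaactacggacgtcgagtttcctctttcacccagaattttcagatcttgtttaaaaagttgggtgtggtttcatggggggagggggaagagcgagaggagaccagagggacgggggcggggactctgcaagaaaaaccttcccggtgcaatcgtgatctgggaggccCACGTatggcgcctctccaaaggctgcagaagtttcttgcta
CDH2, chr18:28177081-28177380, minus strand: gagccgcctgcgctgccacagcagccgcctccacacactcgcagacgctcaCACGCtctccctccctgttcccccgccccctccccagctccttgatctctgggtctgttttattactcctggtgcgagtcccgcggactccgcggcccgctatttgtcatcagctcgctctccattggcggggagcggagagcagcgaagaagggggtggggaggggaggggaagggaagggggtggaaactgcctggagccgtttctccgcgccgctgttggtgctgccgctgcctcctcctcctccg
ZEB2, chr2:144520070-144520369, minus strand: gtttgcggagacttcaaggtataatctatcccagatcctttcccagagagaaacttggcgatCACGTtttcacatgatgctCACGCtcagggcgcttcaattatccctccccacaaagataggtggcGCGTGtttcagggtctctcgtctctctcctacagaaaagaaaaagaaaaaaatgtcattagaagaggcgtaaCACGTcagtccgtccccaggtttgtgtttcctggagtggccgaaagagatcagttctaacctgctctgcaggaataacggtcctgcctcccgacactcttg
Positions count from the start base as 0 to the first base of a match. VIM had 1 match to ACGTG at 8, and CDH2 had 1 match to GCGTG at -199. ZEB2 had 2 matches to each core, with ACGTG at -188 and -51 and GCGTG at -169 and -123. The E-box CACCTG, a sequence that SNAI and ZEB factors bind, was not in these 3 windows. Of 35116 promoter windows in the table, 21.4% held ACGTG, 36.5% held GCGTG and 20.6% held CACCTG, so each match is a common one. The other CDH2 window and the FN1 window had no match to any of the 3 motifs. Of 7 ZEB1 windows, 1 held CACCTG at -57 and another held it at -242, -85 and 33. ACGTG was in 1 ZEB1 window, at -250 and -127, and GCGTG was in 1 at -217, -112 and -104 and in another at -189. A match is a description of letters, not of binding.

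VIM, which encodes the intermediate filament protein vimentin, was the most abundant of the 8 transcripts on every day and fell at day 14. It had 2526.31, 1277.89 and 2399.12 TPM in day 0 replicates 1, 2 and 3. At day 2 it had 1751.27, 1675.17 and 1619.31 TPM, and at day 14 it had 906.422, 1042.84 and 881.054 TPM. All day 14 libraries lay under all day 0 and day 2 libraries, while the day 2 values lay between the low and the high values of day 0. The means were 2067.77 ± 687 TPM at day 0, 1681.92 ± 66.2 at day 2 and 943.439 ± 87.0 at day 14 (SD, n = 3 each), and day 0 replicate 2 gave most of the day 0 spread. The log2 difference at day 14 against day 0 was -1.07 ± 0.26 (SE; limma adjusted p = 0.0154), or -1.51 relative to the median of all tested genes. Without day 14 replicate 3 the adjusted p was 0.0544, and it was 0.0762 after quantile normalization and 0.0567 with only the libraries of the 2 days. For day 2 against day 0 it was -0.23 ± 0.26 (adjusted p = 0.521), and without day 0 replicate 2 it was -0.55, which was called (adjusted p = 0.00443). For day 14 against day 2 it was -0.84 ± 0.26 (adjusted p = 0.159), and without day 0 replicate 2 the same difference was called (adjusted p = 0.00595). In bulk RNA, fewer cells that carry a transcript and less of it per cell cannot be told apart. VIM-AS1, the antisense neighbour of VIM, was at 1.15 to 2.38 TPM, and with no strand setting given its reads cannot be told apart from those of VIM.

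CDH2, which encodes N-cadherin, rose at day 14, and of the 7 genes tested it is the one whose call there held under all 22 alternatives run. Day 0 libraries had 9.52, 4.96 and 8.96 TPM, day 2 libraries had 8.54, 9.73 and 8.80 TPM, and day 14 libraries had 22.9, 23.8 and 16.2 TPM. All day 14 values lay above every earlier one, and the values of days 0 and 2 overlapped. The log2 difference at day 14 against day 0 was 1.34 ± 0.26 (limma adjusted p = 0.00573), or 0.90 relative to the median of all genes, and over the alternatives its adjusted p ran between 0.000323 and 0.0297. Day 2 and day 0 differed by 0.23 ± 0.26 (adjusted p = 0.526), and -0.03 without day 0 replicate 2. The difference between days 14 and 2 was 1.12 ± 0.26 (limma adjusted p = 0.0948), and the call was made without day 0 replicate 2 (adjusted p = 0.00742).

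**Figure D1:**
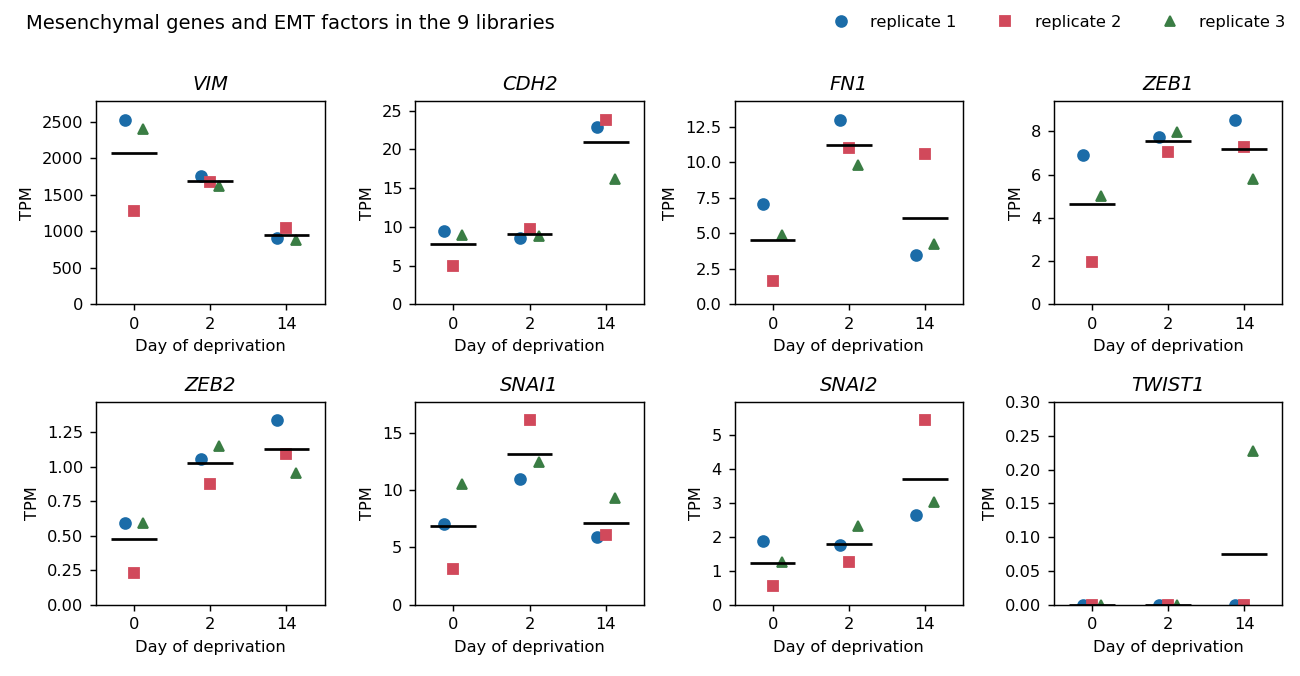
TPM (linear axes from 0) of the 8 genes by day, with 1 point per library, replicates told apart by colour and shape, and a black bar at the mean of 3 libraries. VIM lies lowest at day 14 (881.054 to 1042.84 TPM), CDH2 lies highest there (16.2 to 23.8 TPM), and the red squares of day 0 are replicate 2, the lowest day 0 library in the 7 tested genes.

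CDH1, the E-cadherin gene and the epithelial counterpart of CDH2, had 14.97, 8.87 and 27.9 TPM at day 0, 35.5, 27.4 and 34.1 TPM at day 2, and 8.24, 11.6 and 11.9 TPM at day 14. Day 2 and day 14 libraries did not overlap, and neither difference from day 0 was called, with 1.0004 ± 0.36 at day 2 (limma adjusted p = 0.0656) and -0.53 ± 0.36 at day 14 (adjusted p = 0.270). In day 0 replicate 2, CDH1 lay 1.12 below the mean of replicates 1 and 3 on the log2(TPM + 1) scale. The median there was -0.91 for tested genes of like length. That library thus lowers the day 0 mean from which both CDH1 differences are taken. Leaving it out makes the day 2 rise smaller and the day 14 fall larger, and no CDH1 test without it is given here. Both cadherins were then set against each other within each library, since TPM is already per transcript length. CDH2 had 0.636, 0.559 and 0.321 times the TPM of CDH1 at day 0, 0.241, 0.354 and 0.258 times at day 2, and 2.78, 2.05 and 1.36 times at day 14. CDH1 exceeded CDH2 in all 6 libraries of days 0 and 2, and CDH2 exceeded CDH1 in all 3 of day 14. The difference log2(CDH2 + 1) minus log2(CDH1 + 1) averaged -0.96 ± 0.51 at day 0, -1.73 ± 0.28 at day 2 and 0.92 ± 0.48 at day 14 (SD, n = 3 each). It was higher by 1.88 at day 14 than at day 0 and by 2.65 than at day 2, with p = 0.1 in each two-sided exact permutation test, which is the smallest p that 3 against 3 libraries can give. Between day 2 and day 0 the difference was -0.77 (exact p = 0.2). These 3 values kept their direction under each alternative run, day 0 replicate 2 left out included (1.99 at day 14 and -0.66 at day 2 against day 0). Adjusted over these 3 comparisons (Benjamini-Hochberg), the exact permutation p-values were 0.15 for both day 14 comparisons and 0.2 for day 2 against day 0.

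**Figure D2:**
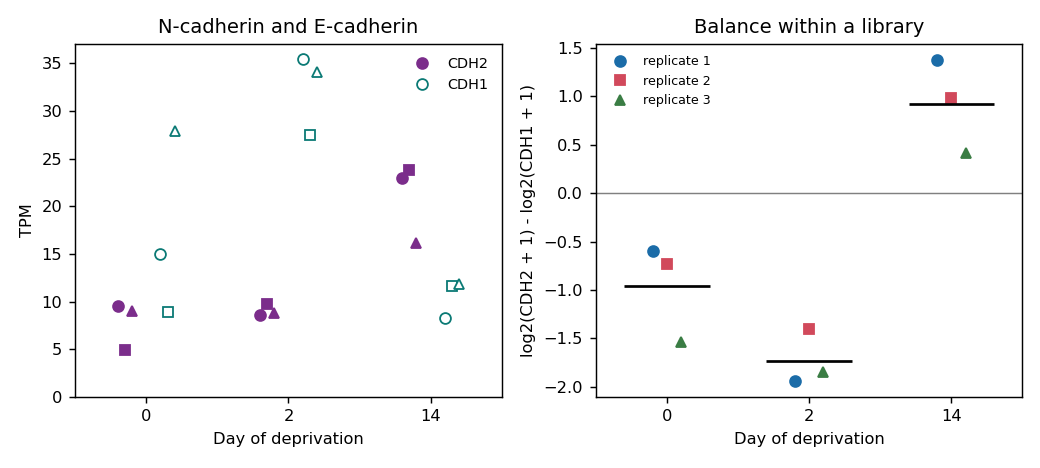
Left, TPM of CDH2 (filled points) and CDH1 (open points) in each library by day. Right, log2(CDH2 + 1) minus log2(CDH1 + 1) per library with a bar at the mean, which lies below 0 in every library of days 0 and 2 and above 0 in the 3 libraries of day 14 (0.42 to 1.37).

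FN1 encodes fibronectin, a matrix protein bound by integrins, and its level was low, with the highest values at day 2. It had 7.04, 1.67 and 4.88 TPM at day 0, 12.99, 10.98 and 9.77 TPM at day 2, and 3.47, 10.6 and 4.22 TPM at day 14. Every day 2 library lay above every day 0 library, while day 14 overlapped both, with replicate 2 of day 14 near the day 2 values. The difference at day 2 against day 0 was 1.28 ± 0.46 (limma adjusted p = 0.0665) and missed the threshold. It was called without day 0 replicate 1 (adjusted p = 0.0389) or day 14 replicate 2 (adjusted p = 0.0474), and was 0.82 without day 0 replicate 2 (adjusted p = 0.113). For day 14 against day 0 the value was 0.36 ± 0.46 (adjusted p = 0.559), or -0.08 relative to the median of all genes and -0.09 without day 0 replicate 2. Days 14 and 2 differed by -0.91 ± 0.46 (adjusted p = 0.339).

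The ZEB genes encode zinc finger repressors of CDH1, and ZEB1 was the more abundant of the pair in every library. ZEB1 had 6.90, 1.96 and 5.01 TPM at day 0, 7.72, 7.07 and 7.96 TPM at day 2, and 8.54, 7.28 and 5.81 TPM at day 14. Day 2 lay above all day 0 libraries, and day 14 overlapped both other days. No ZEB1 difference was called, with 0.72 ± 0.34 at day 2 (limma adjusted p = 0.136) and 0.65 ± 0.34 at day 14 (adjusted p = 0.165) against day 0, and -0.08 between days 14 and 2. With day 0 replicate 2 left out, the values against day 0 were 0.32 and 0.24. The day 2 difference was called with day 0 replicate 1 left out (adjusted p = 0.0472). ZEB1-AS1, an antisense neighbour, was at 0.961 to 2.08 TPM.

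ZEB2 lay near 1 TPM. It had 0.594, 0.232 and 0.594 TPM at day 0, 1.06, 0.874 and 1.15 TPM at day 2, and 1.33, 1.09 and 0.955 TPM at day 14. All 6 libraries of days 2 and 14 lay above the 3 of day 0, and those of days 2 and 14 overlapped. The day 14 difference from day 0 was 0.54 ± 0.16 (limma adjusted p = 0.0299), but only 0.10 relative to the median of all genes. The call was lost without day 2 replicate 1 (adjusted p = 0.0524) and without day 14 replicate 1, 2 or 3 (0.089, 0.0722 and 0.0527). It was also lost after median-ratio scaling (adjusted p = 0.101) and quantile normalization (0.515), and the value was -0.23 once a trend with transcript length had been removed. That trend was fitted over all tested genes. In day 0 replicate 2, ZEB2 differed from replicates 1 and 3 by -0.37, against a median of -1.23 for tested genes of like length. The size of this correction for ZEB2 is therefore uncertain. The day 2 difference from day 0 was 0.47 ± 0.16 (adjusted p = 0.0525). Without day 0 replicate 2 the values against day 0 were 0.41 at day 14, still called, and 0.34 at day 2.

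SNAI1 encodes Snail, a short-lived repressor that acts early in EMT, and its values were highest at day 2. It had 7.02, 3.13 and 10.5 TPM at day 0, 10.95, 16.1 and 12.5 TPM at day 2, and 5.93, 6.09 and 9.29 TPM at day 14. All day 2 libraries lay above all libraries of the other days, and days 0 and 14 overlapped. The difference was 0.95 ± 0.37 at day 2 against day 0 (limma adjusted p = 0.0811) and was not called. It was called without day 0 replicate 3 (adjusted p = 0.0293) and after quantile normalization (0.0446). Without day 0 replicate 2 it was 0.54 and was not called. Between days 14 and 2 it was -0.82 ± 0.37 (adjusted p = 0.288), and the call was made without day 0 replicate 2 (adjusted p = 0.0334). Day 14 and day 0 differed by 0.13 ± 0.37 (adjusted p = 0.795), or by -0.27 without day 0 replicate 2.

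SNAI2 encodes Slug, a relative of Snail, and was highest at day 14. It had 1.89, 0.565 and 1.25 TPM at day 0, 1.77, 1.25 and 2.34 TPM at day 2, and 2.66, 5.45 and 3.02 TPM at day 14. All day 14 libraries lay above all others, and the values of days 0 and 2 overlapped. The difference at day 14 against day 0 was 1.07 ± 0.30 (limma adjusted p = 0.0249), or 0.63 relative to the median of all genes. The call was lost without day 14 replicate 2 (adjusted p = 0.0817), the highest library, and without day 14 replicate 3 (0.0501), and after median-ratio scaling (0.0754) or quantile normalization (0.171). The day 2 difference from day 0 was 0.34 ± 0.30 (adjusted p = 0.406), and at day 14 against day 2 it was 0.73 ± 0.30 (adjusted p = 0.251). Without day 0 replicate 2 the day 2 difference from day 0 was 0.11, and the day 14 call against day 0 was kept. TWIST1, a basic helix-loop-helix factor of EMT, was listed at 0 in 8 libraries and at 0.227 TPM in day 14 replicate 3, so no difference is given for it.

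**Figure D3:**
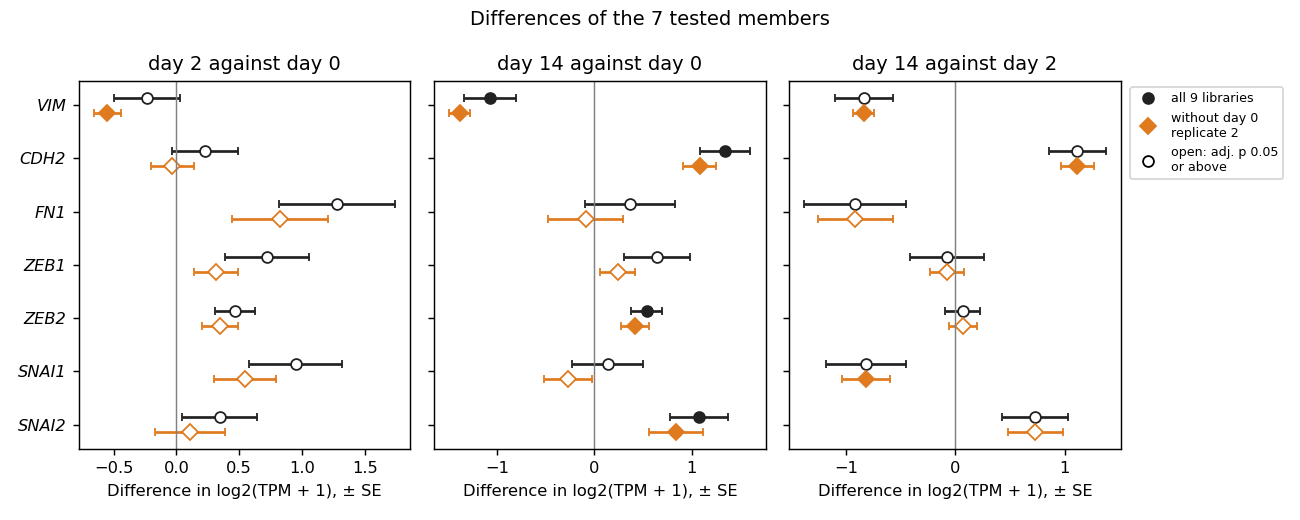
Differences in log2(TPM + 1) with their standard errors for the 7 tested genes in the 3 comparisons of days, with all 9 libraries (circles) and without day 0 replicate 2 (diamonds), filled where the adjusted p was under 0.05. At day 14 against day 0 the same 4 genes are filled both ways (CDH2, ZEB2 and SNAI2 above 0, VIM below 0), and for FN1 and SNAI1 the sign turns without that library.

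The order of the 8 levels, compared as TPM per transcript length, moved between days below VIM. By mean TPM the order at day 0 was VIM, CDH2, SNAI1, ZEB1, FN1, SNAI2, ZEB2 and TWIST1, and the libraries of each neighbouring pair between CDH2 and ZEB2 overlapped. At day 2 it was VIM, SNAI1, FN1, CDH2, ZEB1, SNAI2, ZEB2 and TWIST1, where the libraries of SNAI1 and FN1 overlapped and those of the other neighbouring pairs did not. At day 14 CDH2 stood next after VIM with no overlap on either side, followed by ZEB1, SNAI1, FN1 and SNAI2, whose neighbours overlapped, and then ZEB2 and TWIST1. Among all symbols of a library VIM ranked 13, 102 and 14 at day 0 and 85 to 105 at day 14. CDH2 ranked 7406 to 7866 at day 0 and 4691 to 6252 at day 14. In both comparisons with day 0, 4 of the 7 genes had libraries that did not overlap between the days, against a background of 50.9% of tested genes at day 2 and 52.5% at day 14, and likewise 4 of 7 between days 14 and 2, against 43.8%. These shares are near the background.

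For each tested gene, genes with the nearest profile over the 9 libraries were found among 9188 tested genes with a mean of at least 5 TPM, by the root mean square difference of centred log2(TPM + 1) values. They were MEG3 (0.15), RIPK4 (0.17) and CDH3 (0.17) for VIM and OPN3 (0.11), NRAV (0.14) and PKP2 (0.16) for CDH2. FN1 had more distant neighbours, with ABLIM3 at 0.27 and NRSN2 at 0.28. The measure is not scaled to a gene's own spread on the log2(TPM + 1) scale. Among the 7 tested genes that spread was widest for FN1 (SD 0.80 over the 9 libraries) and narrowest for ZEB2 (SD 0.29), so distances of different genes are not directly comparable. ZEB1 was nearest to USP12 (0.10), GNA13 (0.10) and POMT2 (0.12), and ZEB2 to UBTD2 (0.04), RRN3 (0.06) and EIF2S3 (0.06). For SNAI1 they were SLC29A2 (0.13), GYS1 (0.18) and PLOD1 (0.19), and for SNAI2 ARHGAP18 (0.18), SDC4 (0.19) and BIRC3 (0.20). The likeness is a description over libraries that share day 0 replicate 2.

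For the gene lists that follow, the background against day 0 with all 9 libraries and TPM as deposited is the same. At day 2, 19.2% of all tested genes were called higher and 11.5% lower, and at day 14, 27.5% higher and 6.72% lower. After median-ratio scaling, 2512 of 14144 tested genes were called higher and 2818 lower at day 2, and 2193 and 2533 at day 14. Without day 0 replicate 2 these counts were 3471 and 3351 at day 2, and 4873 and 2063 at day 14. Epithelial genes that EMT factors repress moved in both directions. Of 22 such genes 19 were tested, and at day 2 against day 0, 6 were called higher and 4 lower, with a median log2 difference of 0.50 (0.23 over all tested genes). ELF3, an epithelial transcription factor, rose to 121 ± 10.7 TPM at day 2, against 15.03 ± 6.16 at day 0 (SD, n = 3 each; log2 difference 2.99, limma adjusted p = 0.000431). CLDN3, a tight junction claudin, rose by 2.68 (adjusted p = 0.000172). KRT8, a keratin of simple epithelia, fell to 438 ± 27.7 TPM at day 2, against 1870 ± 351 at day 0 (-2.08, adjusted p = 0.000273), and its partner KRT18 fell by 1.47 (adjusted p = 0.000493). Both keratin genes have processed pseudogenes, so their levels are uncertain. By day 14, against day 0, 6 were called higher and 6 lower, with a median of -0.14 (0.44 over all tested genes). CLDN3 (1.44, adjusted p = 0.00204) and CLDN4 (1.42, adjusted p = 0.00197), another claudin, rose, and KRT8 (-1.89, adjusted p = 0.000439) and KRT19 (-1.83, adjusted p = 0.00137) fell. The CLDN4 call was lost after median-ratio scaling (adjusted p = 0.0618), under which 2 were called higher and 9 lower at day 14. With day 0 replicate 2 left out the counts were 7 higher and 5 lower at day 2 and 5 higher and 8 lower at day 14, and the day 14 count of higher genes was 3 without day 2 replicate 1 or day 14 replicate 2. Between days 14 and 2, ELF3 was called lower (-2.03, adjusted p = 0.0415), a call lost without any of 7 libraries (adjusted p 0.0737 to 0.208). Without day 0 replicate 2, 2 genes of the list were called higher and 9 lower in that comparison, against 3307 higher and 541 lower of all 14144 tested genes.

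**Figure D4:**
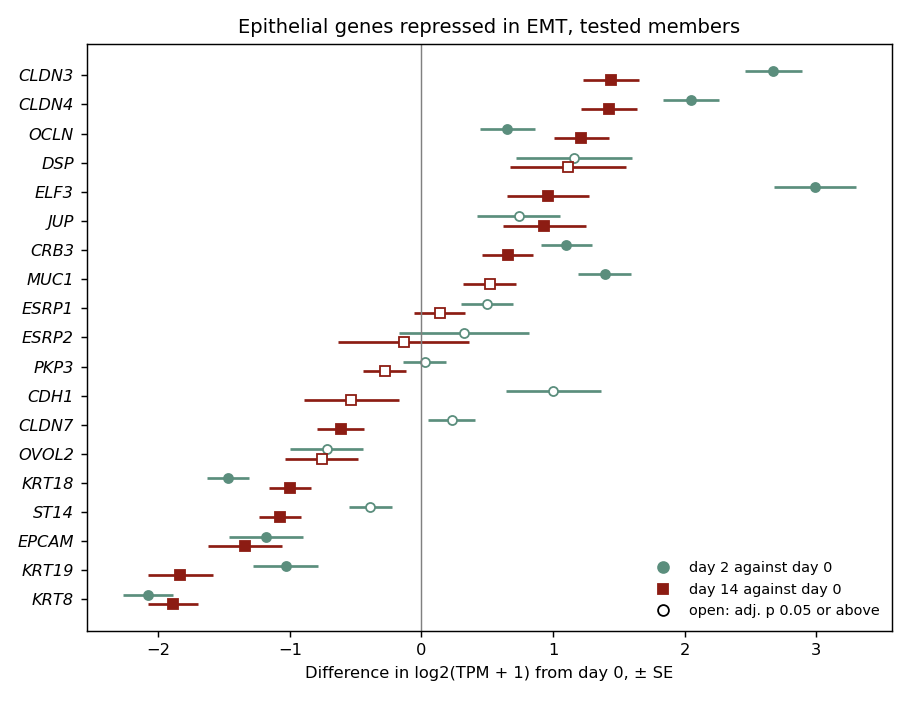
Differences from day 0 in log2(TPM + 1) with their standard errors for the 19 tested epithelial genes, at day 2 (green circles) and day 14 (red squares), filled where the adjusted p was under 0.05. ELF3, CLDN3 and CLDN4 lie to the right of 0 and the keratins KRT8, KRT18 and KRT19 to the left on both days.

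Of 18 other mesenchymal and contractile genes 14 were tested. Against day 0, 3 were called higher and 1 lower at day 2, with a median of -0.10 (0.23 over all tested genes). LOX, a collagen cross-linking enzyme, rose to 6.27 ± 0.258 TPM at day 2, against 1.21 ± 0.584 at day 0 (SD, n = 3 each; 1.75, limma adjusted p = 0.000991). TPM2, a tropomyosin, fell by 1.35 (adjusted p = 0.0145), a call lost without day 2 replicate 3 (adjusted p = 0.0547). By day 14, against day 0, 4 were called higher and 0 lower, with a median of 0.19 (0.44 over all tested genes). S100A4, a calcium-binding protein gene, rose (1.19, adjusted p = 0.0414), a call lost without each library but day 0 replicate 2 (0.0635 to 0.121). The counts with day 0 replicate 2 left out were 4 higher and 5 lower at day 2 and 2 higher and 3 lower at day 14. At day 2 no gene was called lower without day 2 replicate 3. Leaving out replicate 1 or 3 of day 14 brought the day 14 count of higher genes to 0, and leaving out replicate 2 of that day brought it to 1. It was also 1 when replicate 3 of day 0 or replicate 1 or 3 of day 2 was left out, and 2 for replicate 2 of day 2, and 1 gene was called lower when replicate 1 of day 0 was left out. After median-ratio scaling 0 were called higher and 1 lower at day 14, with a median of -0.41.

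Of 13 other EMT-associated transcription factors 10 were tested, and 2 were called higher and 1 lower at day 2 against day 0, with a median of 0.39 (0.23 over all tested genes). SOX4, an inducer of EMT in epithelial cells, rose to 59.9 ± 3.73 TPM, against 15.8 ± 9.04 at day 0 (2.06, limma adjusted p = 0.0143). SNAI3, the third SNAI gene and the other one called higher, had 1.36 ± 0.194 TPM at day 2, against 0.211 ± 0.0715 at day 0 (0.96, adjusted p = 0.00206). It reached 1 TPM in the 3 libraries of day 2 alone and passed the filter through them, so its call is no independent support for a rise. Its antisense partner SNAI3-AS1 also had higher TPM at day 2, and reads of the pair cannot be told apart without a strand setting. The day 2 count of lower genes was 0 without any 1 library other than day 0 replicate 2 and day 14 replicate 1. Day 14 had 3 called higher and 0 lower against day 0, with a median of 0.16 (0.44 over all tested genes). SOX4 (1.76, adjusted p = 0.0245) lost its call without day 14 replicate 2 (0.085) or 3 (0.0797), and SOX9 (1.14, adjusted p = 0.0423) lost it without any 1 library of days 2 and 14 (0.061 to 0.123). TWIST2, with a mean of 2.95 TPM at day 0, was the other one called higher (1.08, adjusted p = 0.0104). Its call was lost after quantile normalization (0.119). Leaving out replicate 2 or 3 of day 14 brought the day 14 count of higher genes to 1, and leaving out replicate 1 brought the count of lower genes to 1. When day 0 replicate 2 was left out, 3 were called lower at day 2 and 4 at day 14, with the counts of higher genes at 2 and 3. Median-ratio scaling gave 2 higher and 3 lower at day 2, and 2 higher and 2 lower at day 14, where the median was then -0.20.

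Of 15 genes of TGF-beta signalling, which induces SNAI and ZEB genes, all were tested, and 5 were called higher and 0 lower at each of days 2 and 14 against day 0, with medians of 0.65 and 0.87 (0.23 and 0.44 over all tested genes). The background called higher was 19.2% at day 2 and 27.5% at day 14, and of all calls 62.4% at day 2 and 80.4% at day 14 were higher. TGFB2, a ligand, rose at both days, to 24.3 ± 2.04 TPM at day 2 and 34.4 ± 11.1 at day 14, against 6.31 ± 3.63 at day 0 (1.95, limma adjusted p = 0.0108, and 2.39, adjusted p = 0.00444). SMAD6, an inhibitory SMAD, rose at day 2 (1.40, adjusted p = 0.0305), a call lost without any of the day 2 libraries (0.0622 to 0.0971). SKIL, a SMAD corepressor and TGF-beta target, rose at day 2 (1.33, adjusted p = 0.00223) and at day 14 (1.07, adjusted p = 0.00541). Its day 14 call was lost after median-ratio scaling (0.0673). The day 2 count was 2 without any 1 of the day 2 libraries, and without day 0 replicate 2 it was 6 higher and 1 lower. At day 14 median-ratio scaling gave 2 higher and 1 lower.

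Of the corepressors used by SNAI and ZEB factors, all 12 were tested, and 0 were called higher and 3 lower at day 2 and 2 higher and 3 lower at day 14 against day 0, with medians of -0.18 and 0.00 (0.23 and 0.44 over all tested genes). SUV39H1, a histone methyltransferase that Snail can recruit, fell to 5.47 ± 0.867 TPM at day 2 and 7.49 ± 0.967 at day 14, against 25.3 ± 7.42 at day 0 (-1.99, limma adjusted p = 0.000933, and -1.59, adjusted p = 0.00255). EED, a subunit of the polycomb complex PRC2, fell by 1.48 at day 2 (adjusted p = 0.00309) and by 1.03 at day 14 (adjusted p = 0.0133). SETDB1, another histone methyltransferase, rose at day 14 (1.29, adjusted p = 0.0137), as did CTBP2, a corepressor of ZEB proteins (1.27, adjusted p = 0.0146; 0.0503 without day 14 replicate 1). Leaving out day 0 replicate 2 gave 3 higher and 5 lower at day 2 and 3 higher and 4 lower at day 14. Leaving out replicate 1 or 3 of day 0 gave 1 or 2 higher at day 2, and leaving out replicate 1 of day 14 gave 1 higher at day 14. Median-ratio scaling gave 2 higher at either day, and 5 lower at day 2 and 6 lower at day 14.

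Genes whose products modify, destroy or stabilise EMT factors numbered 13, of which 11 were tested, and 4 were called higher and 0 lower at each of days 2 and 14 against day 0, with medians of 0.44 and 0.50 (0.23 and 0.44 over all tested genes), against a background of 19.2% and 27.5% called higher. GSK3B, the kinase that marks Snail for destruction, had 20.2 ± 1.65 TPM at day 2 and 19.8 ± 1.25 at day 14, against 6.40 ± 4.17 at day 0 (1.75, limma adjusted p = 0.0216, and 1.72, adjusted p = 0.021). Each GSK3B call was lost without any 1 library of its later day (0.055 to 0.069). FBXO11, a ubiquitin ligase subunit that targets Snail, rose by 1.29 (adjusted p = 0.00636) and 1.42 (adjusted p = 0.00414). Both counts were 2 without any 1 library of the later day, and without day 0 replicate 2 they were 4 higher and 1 lower at day 2 and 5 higher and 0 lower at day 14.

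Partners of the 3 structural genes were described in the same way. Of 7 catenins and other cadherin partners 6 were tested, and 3 were called higher at day 2 and 5 at day 14 against day 0, 0 lower at either, with medians of 0.88 and 1.17 (0.23 and 0.44 over all tested genes). ARVCF, a catenin of the p120 family, rose to 12.9 ± 1.77 TPM at day 2 and 8.65 ± 3.14 at day 14, against 1.90 ± 0.51 at day 0 (2.27, limma adjusted p = 0.000685, and 1.70, adjusted p = 0.0025), and CTNNA1, alpha-catenin, rose by 1.03 at day 2 (adjusted p = 0.00412). CTNND1, p120-catenin, rose at day 14 (1.65, adjusted p = 0.0405), a call lost without any 1 library of days 2 and 14 (0.0618 to 0.112). The day 14 count was 3 without day 0 replicate 1 or day 2 replicate 2, 2 without any other 1 library of days 2 and 14, and 3 after median-ratio scaling. They were 4 at day 2 and 5 at day 14 with day 0 replicate 2 left out.

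Of 8 fibronectin receptor genes 5 were tested, and 1 was called higher at day 2 and 2 at day 14, with medians of 0.58 and 1.05 (0.23 and 0.44 over all tested genes). ITGAV, an integrin subunit, rose at day 2 (1.13, limma adjusted p = 0.0201) and day 14 (1.08, adjusted p = 0.0225), and SDC4, a syndecan, rose at day 14 (1.05, adjusted p = 0.00836). The ITGAV call at day 2 was lost without any 1 of the day 2 libraries (0.0544 to 0.0696), which leaves a count of 0, and at day 14 without replicate 1 (0.0539) or 2 (0.0816), which leaves 1. Without day 0 replicate 2, 1 further gene was called lower on each day, and after median-ratio scaling the day 14 count was 0 higher and 1 lower.

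Of 10 other intermediate filament genes and vimentin partners 6 were tested, and 1 was called higher and 2 lower on each of days 2 and 14, with medians of -0.33 and -0.54 (0.23 and 0.44 over all tested genes). NES, which encodes nestin, a filament protein that assembles with vimentin, fell to 4.52 ± 0.972 TPM at day 2 and 2.89 ± 0.835 at day 14, against 17.4 ± 1.97 at day 0 (-1.75, limma adjusted p = 0.000938, and -2.26, adjusted p = 0.000402). LMNB1, a nuclear lamin gene, fell by 2.14 (adjusted p = 0.00087) and 2.19 (adjusted p = 0.000883). YWHAZ, a 14-3-3 gene with processed pseudogenes and so of uncertain level, had differences of 0.81 (adjusted p = 0.0258) and 0.76 (adjusted p = 0.0308), and both calls were lost after median-ratio scaling (0.0856 and 0.549). The call of YWHAZ, and with it the count of higher genes, was lost at day 2 without any 1 day 2 library and at day 14 without any 1 day 2 library or day 14 replicate 1 or 2. The counts of lower genes were 4 and 3 with day 0 replicate 2 left out, and 4 on each day after median-ratio scaling. Between days 14 and 2, none of the genes in these lists but ELF3 passed limma's adjusted threshold with all 9 libraries, a comparison in which 2558 of all tested genes had an unadjusted p under 0.05. Without day 0 replicate 2 the TGF-beta list then had 4 called higher, the other mesenchymal list 3 higher and 3 lower, and the other transcription factors 2 higher and 2 lower. Of all 14144 tested genes, 3307 were called higher and 541 lower in that setting.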

How the data were processed

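RNA from 9 PANC-1 samples was sequenced. The values deposited by the authors are TPM by gene symbol. Salmon and the build hg19 are named in the submitters' processing notes, while a version, an annotation, a strand setting and read filters are not given in the sources used here. Deposited TPM sums to 1000000 in each library, so values are relative and keep no depth. Nothing in the labels says that replicates are separate cultures, so p-values measure only the spread between these samples.

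Tests covered the 14144 genes that reached 1 TPM in 3 or more of the 9 libraries, as log2(TPM + 1) with limma 3.58.1 in R 4.3.3, with an intensity trend, all 9 libraries in 1 fit, two-sided, and Benjamini-Hochberg adjustment at 0.05. The code was tested on simulated data. The log2 cadherin ratio was compared by exact permutation. The genes and lists, some taken over from earlier work on these data, were chosen with earlier results of these data known. Named genes are the 8 genes, up to 2 largest called rises and falls per list and comparison with at least 1 TPM on the higher day, and the 3 genes most like each tested one. Some genes that this rule names are not reported here. CDH1, the antisense RNAs and other genes beside a result are given for that result, and JUP is in more than 1 list. Transcript lengths (longest protein-coding) came from GENCODE v29. Alternatives changed the pseudocount (0.1 and 5), filter, scaling, moderation, weights, block, days and libraries in the fit, and, chosen after seeing the data, removed a transcript length trend (loess span 0.3).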

Additional observations from a re-analysis of the deposited data

How the results depend on the processing

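CDH2 at day 14 against day 0 kept its call under all 22 alternatives. In the same comparison, VIM lost its call under 3, SNAI2 under 7 and ZEB2 under 9, and ZEB2 reversed to -0.23 with the length trend removed. The number of genes called higher at day 14 against day 0 (3) was 1 with median-ratio scaling, quantile normalization, a mean filter of 5 TPM, the replicate block, only the 2 days compared or the length trend removed, and 1 to 3 without 1 library. The number called lower (1) was 0 with quantile normalization or only the 2 days, and 0 to 1 without 1 library. At day 2 against day 0 the number higher (0) was 1 with no filter, quantile normalization, no ribosomal protein genes or the length trend removed, 3 with array weights and 0 to 2 without 1 library, and the number lower (0) was 1 with array weights and 0 to 1 without 1 library. Between days 14 and 2 the number higher (0) was 1 with quantile normalization, only the 2 days or the length trend removed, 2 with array weights and 0 to 1 without 1 library. The number lower (0) was 1 with quantile normalization, array weights or the length trend removed, 2 with only the 2 days and 0 to 2 without 1 library. Calls over all tested genes between days 14 and 2 (59) numbered 6 and 127 with pseudocounts of 0.1 and 5, 24 with a mean of at least 5 TPM, 131 with median-ratio scaling, 305 with quantile normalization, 128 without ribosomal protein genes, 5052 with array weights, 2 with the replicate block, 2519 with only the 2 days, 344 with the length trend removed and 1 to 3848 without 1 library. Against day 0 they numbered 8975 at day 2 and 8455 at day 14 with array weights, 3214 at day 14 with a mean of at least 5 TPM, 2927 at day 14 with only the 2 days, and 2707 to 6822 (day 2) and 3200 to 6936 (day 14) without 1 library. Uncalled differences that changed sign were CDH2 at day 2 (-0.078 with median-ratio scaling, -0.091 with quantile normalization, -0.047 with array weights, -0.059 with the length trend removed, -0.032 to 0.38 without 1 library), SNAI2 at day 2 (-0.055 with quantile normalization) and ZEB2 at day 2 (-0.10 with the length trend removed). At day 14 against day 0 they were FN1 (-0.091, -0.21 and -0.39 with median-ratio, quantile and length settings, -0.091 to 0.70 without 1 library) and SNAI1 (-0.37, -0.43 and -0.022 with those settings, -0.25 with array weights, -0.27 to 0.47 without 1 library). Between days 14 and 2 they were ZEB1 (-0.19 to 0.052 without 1 library) and ZEB2 (-0.065, -0.018 and -0.13 with median-ratio, quantile and length settings, -0.016 with array weights, -0.000904 to 0.13 without 1 library). The cause of these changes was not tested, except that a stricter filter tests fewer genes. The cadherin ratio differences ran from 1.59 to 2.13 (day 14 against day 0), 2.42 to 2.90 (day 14 against day 2) and -1.06 to -0.60 (day 2 against day 0) without 1 library. Of 1188 list counts under the alternatives, 969 stayed within 1.5 times and 219 moved. Same-numbered libraries of different days had deviations correlated at -0.079 to 0.015, so the numbers were not taken as pairs; the replicate block left 1 gene of the 8 called higher at day 14 against day 0. Depth is unknown from TPM, and genes near 1 TPM, such as ZEB2, are measured least precisely.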

Other observations

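Of the 9 fibroblast markers 3 were tested, and at day 14 against day 0, 0 were called higher and 2 lower, against a background of 6.72% of tested genes called lower. COL3A1, a fibrillar collagen, had 0.145 TPM at day 14 against 1.22 TPM at day 0 (log2 difference -0.90 ± 0.24, limma adjusted p = 0.0194). It reached 1 TPM only in libraries of days 0 and 2, so it passed the filter through the days where it is high and its call is no independent support. THY1, a surface glycoprotein of fibroblasts, had 2.76 TPM at day 14 against 5.34 TPM at day 0 (-0.77 ± 0.25, adjusted p = 0.0445), and its libraries overlapped between the days. COL1A1, another fibrillar collagen, was not called, with 10.3 TPM at day 14 against 37.2 TPM at day 0 (-1.45 ± 0.55, adjusted p = 0.071) and 65.8 TPM at day 2 against the same day 0 level (1.12 ± 0.55, adjusted p = 0.151). The COL3A1 call was lost without day 0 replicate 1 or 3 or any of the day 14 libraries (adjusted p 0.0512 to 0.0625). The THY1 call was lost without day 0 replicate 1 or 3, any of the day 2 libraries, or day 14 replicate 1 or 2 (0.0664 to 0.139). Without day 0 replicate 2, 3 of the 3 were called lower at day 14, where 2063 of all 14144 tested genes were called lower.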
